A study of Danio rerio with 8 samples.

Results

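The transcripts described here encode ATP-driven pumps of cell membranes: the sodium/potassium pump, the calcium pumps, the copper pump, the phospholipid flippases, the P5 pumps and the vacuolar proton pump (V-ATPase). They are the 60 genes whose symbol begins with *atp1a*, *atp1b*, *atp2a*, *atp2b*, *atp2c* or *atp6* to *atp13*, in upper or lower case, among the 13325 genes of the table in which the authors annotated their comparison. No symbol of the nongastric proton pump (*atp12*) was among them, and the 60 fell into 11 classes. Libraries came from retinas of 4 adult *xops:eGFP* zebrafish, a line whose rods express eGFP from the rod opsin promoter of *Xenopus*. Sex was a variable in the study's design, but the labels used here do not give it for each fish. A trypsin and papain digest of both retinas of each dark-adapted fish was sorted by flow cytometry into GFP+ cells, labelled as rods, and GFP- cells, labelled as non-rod retinal cells, so that each fish gave 1 library of each population and all 8 libraries carry the transgene. Fish are numbered 1 to 4 here. A suffix, _2, in the labels of fish 3 and 4 is explained by no source used here. The GFP- population is a mixture of cell types, and each library was made from amplified RNA and sequenced on a MiSeq. The comparison of GFP+ with GFP- libraries within a fish asks which transcripts are enriched or depleted in rods.

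P-type pumps pass a phosphate group from ATP to an aspartate of their own chain and move ions or lipids across the membrane as they cycle between conformations. In a rod, sodium and calcium enter the outer segment through cyclic nucleotide-gated channels in the dark, and sodium/potassium pumps of the inner segment return the sodium. The sodium/potassium pump is made of a catalytic alpha chain and a beta chain that carries it to the plasma membrane. Pumps of the endoplasmic reticulum (SERCA) store calcium, and those of the plasma membrane expel it. The V-ATPase has a rotor in the membrane (V0) and an ATP-splitting head (V1), and acidifies lysosomes, endosomes and synaptic vesicles. P4 flippases return phosphatidylserine and related lipids to the cytoplasmic leaflet, and most work with a subunit of the TMEM30 (CDC50) family.

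The count files hold 1722055 to 2514874 counts on genes per library. Levels are given as counts per 1000000 counts (CPM) of the library size after TMM scaling, and a count of 0 allows up to 3 counts, or 1.19 to 1.74 CPM of the unscaled counts on genes, which covers counting error only. CPM values are not divided by transcript length, so levels were compared between populations and not between genes. Mitochondrial genes took 12.4 to 39.3% of the counts in GFP+ libraries and 25.0 to 66.1% in GFP- libraries. The labels were set beside marker lists. These lists were chosen with earlier results of these data known, so the counts below are no independent check of the labels. At a false discovery rate (FDR) under 0.01, all 20 rod marker IDs were higher in GFP+ libraries (summed level 48341 to 87616 CPM, against 3933 to 18763 CPM), and 16 of 17 tested cone marker IDs were lower (6850 to 21370 CPM, against 30033 to 53594 CPM). The remaining cone ID, named *zgc:112320* in the table and matched to PDE6H by the reference names, was higher. In the GFP- libraries, summed rod markers were lower in fish 1 and 2 (3933 and 5649 CPM) than in fish 3 and 4 (18763 and 16254 CPM). Microglia and macrophage markers summed to 422 to 516 CPM in GFP+ and 1464 to 2779 CPM in GFP- libraries, and 10 of 13 tested IDs were lower.

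At an FDR under 0.01, 0 of the 60 pump genes were higher and 3 were lower in GFP+ libraries by edgeR's quasi-likelihood test, fitted over 12564 genes with the fish as a block. Of all genes tested, 3.13% were higher and 5.68% were lower by the same rule, so the 5.00% of pump genes that were lower lay near the background. The 3 were *atp1b1a*, a beta chain of the sodium/potassium pump, *ATP6AP1L (1 of 2)*, named after an accessory subunit of the V-ATPase, and *atp2a3*, a SERCA calcium pump. All 60 genes passed the filter on low counts, 57 had a count in every GFP+ library and 60 in every GFP- library, and 41 had 10 or more counts in all 8. At an unadjusted p under 0.05, 5 pump genes were higher and 12 lower (background 10.7% and 15.8%). At an FDR under 0.01, DESeq2 and edgeR's likelihood ratio test each called 1 pump gene higher (background 4.21% and 4.66%). Without scaling factors 3 were higher and 2 lower (background 4.52% and 2.96%). The split between higher and lower calls thus depended on the scaling, for the pump genes and for all genes.

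At an FDR under 0.05, 3 pump genes (*atp7a*, *atp8a2* and *atp6v0a1a*) were higher in GFP+ libraries and 9 were lower (background 5.60% and 9.57%). Without scaling factors 4 were higher and 3 lower at this threshold, and without the block 0 were higher and 2 lower. Leaving out fish 1, 2 or 4 gave 0 higher and 4 lower each time, and leaving out fish 3 gave 2 and 6. The share of all genes at this threshold was not counted for these alternatives. Among the 14 alternatives described below, an FDR under 0.05 held in 5 for *atp1a1b* and *atp6v0a1b*, 6 for *atp2b3a* and 7 for *atp2b4*. It held in 8 for *atp1a1a.1*, 9 for *atp1b2a*, 13 for *atp2a3* and *ATP6AP1L (1 of 2)*, and 14 for *atp1b1a*. Among the higher genes it held in 7 for *atp6v0a1a* and 9 for *atp7a* and *atp8a2*. The median log2 fold change (GFP+ over GFP-) was -0.34 over the 60 genes and -0.02 over all genes tested. Without scaling factors these medians were 0.02 and 0.32, so that the pump genes lay 0.30 below all genes, compared with 0.31 below with TMM scaling. The fitted change was above 0 for 17 pump genes (28.3%, background 49.0%) and below 0 for 43, but without scaling factors it was above 0 for 31 (51.7%, background 62.5%) and below 0 for 29. Within fish and with TMM scaling, 19 pump genes were lower in the GFP+ library of all 4 fish (31.7%, background 18.9%) and 5 were higher in all 4 (8.33%, background 15.7%). Every GFP+ library lay below every GFP- library for 6 genes (background 8.96%) and above for 2, *atp8a2* and *atp6v0a1a* (background 5.58%). In bulk samples such as these, fewer cells of a type and less RNA per cell cannot be told apart.

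**Figure D1:**
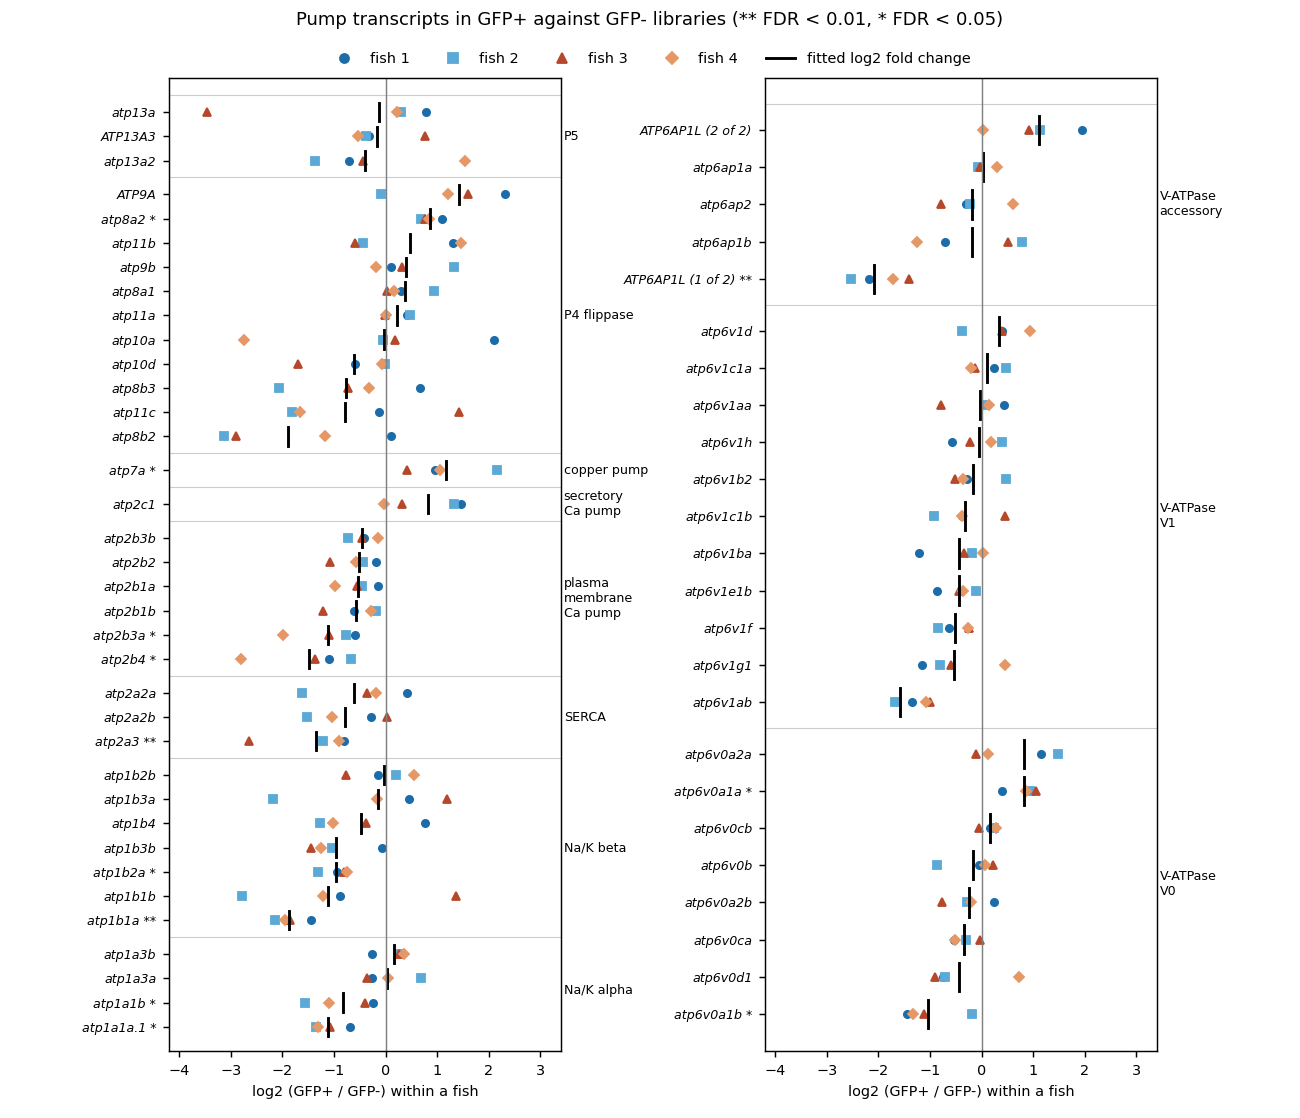
Log2 ratio of GFP+ over GFP- within each fish (points, from log CPM with a prior count of 2) and fitted log2 fold change (black bars) for the 60 pump genes, grouped by class; stars mark the FDR. With TMM scaling all 6 plasma membrane calcium pumps lie below 0 in all 4 fish, which does not hold for each of them without scaling. Of the 24 V-ATPase genes, 18 have fitted changes from -0.54 for *atp6v1g1* to 0.33 for *atp6v1d*.

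The alpha chains of the sodium/potassium pump hold the sites for ATP and the ions. Of 4 alpha genes, 0 passed the FDR of 0.01 (background 3.13% higher and 5.68% lower). At 0.05, 2 passed as lower in GFP+ libraries (background 9.57%), *atp1a1a.1* and *atp1a1b*. *atp1a3b*, which took the most counts of this class, had in fish 1 to 4 a level of 1778, 1336, 609 and 833 CPM in GFP+ libraries and 2148, 1109, 510 and 647 CPM in GFP- libraries. The populations overlapped throughout, and within a fish the GFP+ library was above in fish 2, 3 and 4 and below in fish 1 (log2 fold change 0.15 ± 0.26, SE, FDR = 0.774). Alpha 3 is the alpha chain of neurons, photoreceptors included, in mammals. Its other zebrafish copy, *atp1a3a*, averaged 459 ± 242 CPM in GFP+ libraries and 423 ± 141 CPM in GFP- libraries (SD, n = 4 each, log2 fold change 0.03 ± 0.26, FDR = 0.969).

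The alpha 1 genes, relatives of the chain found in most mammalian tissues, had the larger differences of the class. *atp1a1a.1* (chromosome 1, 1468926 to 1550157, Zv9) had 57.4, 50.5, 25.0 and 33.8 CPM in GFP+ libraries and 93.9, 130, 54.2 and 84.8 CPM in GFP- libraries. The GFP+ library was the lower in each fish, although the highest GFP+ value, in fish 1, was above the lowest GFP- value, in fish 3. Its log2 fold change was -1.12 ± 0.29 (FDR = 0.0104). *atp1a1b* had 455, 109, 123 and 151 CPM in GFP+ libraries and 536, 324, 162 and 326 CPM in GFP- libraries, again lower in each fish but with the GFP+ library of fish 1 above 3 of the GFP- libraries (log2 fold change -0.83 ± 0.28, FDR = 0.0465). Within the alpha class, *atp1a3b* took 61.6% ± 2.28 (SD, n = 4) of the counts in GFP+ and 53.8% ± 7.43 (SD, n = 4) in GFP- libraries, and *atp1a1a.1* 2.33% ± 0.23 and 5.15% ± 1.62. The share was higher in GFP+ for *atp1a3b* and lower for *atp1a1a.1* in all 4 fish, but for *atp1a3b* it was nearly equal in fish 1 (63.9 against 63.8%). 4 further genes named as copies of *atp1a1a* had at most 6 counts in any library, and reads of such copies may not be told apart in counting.

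Beta chains fold the alpha chain and bring it to the membrane. All 7 beta genes had a fitted change below 0 (background 51.0%). Without scaling factors 2 of the 7, *atp1b2b* and *atp1b3a*, were above 0 (28.6%, background 62.5%). The median log2 fold change was -0.95, and 1 gene passed the FDR of 0.01 as lower (background 5.68%). *atp1b1a* (chromosome 6, 28931188 to 28941283) had 48.5, 23.7, 32.9 and 33.8 CPM in GFP+ libraries and 134, 108, 122 and 133 CPM in GFP- libraries. Every GFP+ library lay well below every GFP- library, and the spread within each population was small. The means were 34.7 ± 10.3 and 124 ± 12.3 CPM (SD, n = 4 each), a 3.58-fold lower mean level in GFP+ libraries (log2 fold change -1.87 ± 0.29, FDR = 7.97e-05). It was the only pump gene that stayed under an FDR of 0.01 without the fish as a block. Its near copy *atp1b1b* was counted at 2.97, 0.43, 12.1 and 5.03 CPM in GFP+ and 6.30, 8.52, 4.17 and 12.9 CPM in GFP- libraries, and was lower in fish 1, 2 and 4 and higher in fish 3 (FDR = 0.474).

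Beta 2 is encoded by a pair of copies. *atp1b2a* (chromosome 23, 45574171 to 45605549) had 429, 334, 274 and 322 CPM in GFP+ libraries and 829, 831, 480 and 544 CPM in GFP- libraries. The populations did not overlap (log2 fold change -0.96 ± 0.25, FDR = 0.0109). *atp1b2b*, which took the most counts of the class, had 1295, 994, 1686 and 1503 CPM in GFP+ and 1433, 861, 2862 and 1022 CPM in GFP- libraries. Its GFP+ values lay inside the range of the GFP- values, and the sign of the difference changed between fish (log2 fold change -0.04 ± 0.28, FDR = 0.960). In mammalian photoreceptors beta 2 is the partner of alpha 3 in a complex that binds retinoschisin. The share of beta counts was 72.8% ± 7.59 (SD, n = 4) for *atp1b2b* in GFP+ and 58.4% ± 15.0 (SD, n = 4) in GFP- libraries, higher in GFP+ in all 4 fish, while the shares of *atp1b1a* (1.84% and 5.29%) and *atp1b2a* (18.6% and 29.3%) were lower in all 4. Among the other beta genes *atp1b3b* did not overlap between populations but missed both thresholds (31.5 ± 14.2 against 58.2 ± 7.64 CPM, FDR = 0.0653).

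SERCA pumps move calcium from the cytoplasm into the endoplasmic reticulum. Of 3 genes, *atp2a3* passed the FDR of 0.01 as lower in GFP+ libraries (background 5.68%), whereas *atp2a2a* and *atp2a2b* were not called (FDR = 0.781 and 0.335). *atp2a3* (chromosome 5, 32851956 to 32906785) had 187, 105, 25.0 and 69.5 CPM in GFP+ libraries and 327, 244, 162 and 131 CPM in GFP- libraries. The GFP+ library was the lower in every fish, but the populations overlapped because fish 1 was high in both. The mean was 96.7 ± 68.5 CPM in GFP+ and 216 ± 87.9 CPM in GFP- libraries (SD, n = 4 each), 2.23-fold lower (log2 fold change -1.35 ± 0.31, FDR = 0.00321). Fish 3 had the largest difference, -2.65 on the log2 scale against -1.21 to -0.80 in the others. Without fish 3 the log2 fold change was -0.95, and the FDR was above 0.01 when any 1 fish was left out (0.0141 to 0.0348) and 0.211 without the block. In mammals SERCA3 is known from blood cells, endothelium and some epithelia. The microglia and macrophage markers were lower in GFP+ libraries as given above. Of their 19 IDs, 7, *mpeg1* and *c1qa* among them, were at 0 counts in all 4 GFP+ libraries, and only 13 of the 19 had enough counts to be tested. The part of these cells in the result on *atp2a3* was not tested.

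Plasma membrane calcium pumps expel calcium from the cytoplasm, and in mammalian rods they work at the cell body and synaptic terminal. With TMM scaling all 6 genes were lower in the GFP+ library of all 4 fish (background 18.9% of all genes), with a median log2 fold change of -0.56. The fitted change of all 6 was also below 0 without scaling factors, but the direction did not hold in every fish. In unscaled counts *atp2b3b* was higher in the GFP+ library of fish 3 (40 against 38) and fish 4 (51 against 40). The same held for *atp2b1b* in fish 4 (641 against 554). In both fish the GFP+ library held fewer counts on genes than the GFP- library. At an FDR of 0.01, 0 of the 6 were called (background 3.13% higher and 5.68% lower). At 0.05, 2 were lower (background 9.57%). *atp2b3a* (chromosome 8, 14519339 to 14569300) had 49.2, 41.0, 28.6 and 16.5 CPM in GFP+ and 74.7, 70.9, 62.6 and 68.0 CPM in GFP- libraries. The populations did not overlap, and the GFP- values were close together (log2 fold change -1.11 ± 0.33, FDR = 0.0242). *atp2b4* had 17.8, 26.8, 7.86 and 2.74 CPM in GFP+ and 39.4, 43.4, 21.9 and 24.6 CPM in GFP- libraries, with the GFP+ library of fish 2 above the GFP- libraries of fish 3 and 4 (log2 fold change -1.49 ± 0.47, FDR = 0.0323). In humans its relative is the main calcium pump of red blood cells. Erythrocyte markers summed to 0 to 9.90 CPM in GFP+ and 125 to 358 CPM in GFP- libraries, with 5 of 7 tested IDs lower, and *alas2* and *hbaa1* at 0 in all GFP+ libraries. Markers of other retinal neurons also had lower sums in GFP+ libraries. Amacrine and horizontal markers summed to 204 to 339 CPM against 548 to 753 CPM (3 of 11 tested IDs lower, 0 higher). Ganglion cell markers summed to 22.0 to 56.2 CPM against 113 to 202 CPM (1 of 4 tested IDs lower). The rest of the 10 ganglion IDs had too few counts to be tested. Bipolar markers summed to 402 to 991 CPM against 907 to 2647 CPM (3 of 9 lower), where the populations overlapped. Müller glia markers summed to 279 to 613 CPM against 510 to 687 CPM, with overlap, and 0 of 6 tested IDs were called. Pigment epithelium markers summed to 25.5 to 35.7 CPM against 42.7 to 86.7 CPM, and 0 of 3 tested IDs were called. The part of these cell types in the results on plasma membrane calcium pumps was not tested.

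*atp2b1b* took the most counts among the plasma membrane calcium pumps. It had 263, 270, 377 and 293 CPM in GFP+ and 406, 307, 872 and 359 CPM in GFP- libraries. Fish 3 was the highest in both populations, and its GFP+ value exceeded the GFP- values of fish 2 and 4 (log2 fold change -0.58 ± 0.26, FDR = 0.159). The other genes, *atp2b1a*, *atp2b2* and *atp2b3b*, had log2 fold changes of -0.54, -0.53 and -0.46 and were not called. Every GFP+ library of *atp2b1a* lay below every GFP- library (36.6 ± 3.41 against 53.8 ± 8.15 CPM, SD, n = 4 each). The secretory pathway calcium pump *atp2c1*, which loads the Golgi with calcium and manganese, lay the other way, with 62.7, 46.2, 37.9 and 35.7 CPM in GFP+ and 22.1, 17.8, 30.2 and 36.3 CPM in GFP- libraries. Its difference was large in fish 1 and 2 and near 0 in fish 4, and it was not called (log2 fold change 0.81 ± 0.38, FDR = 0.169).

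**Figure D2:**
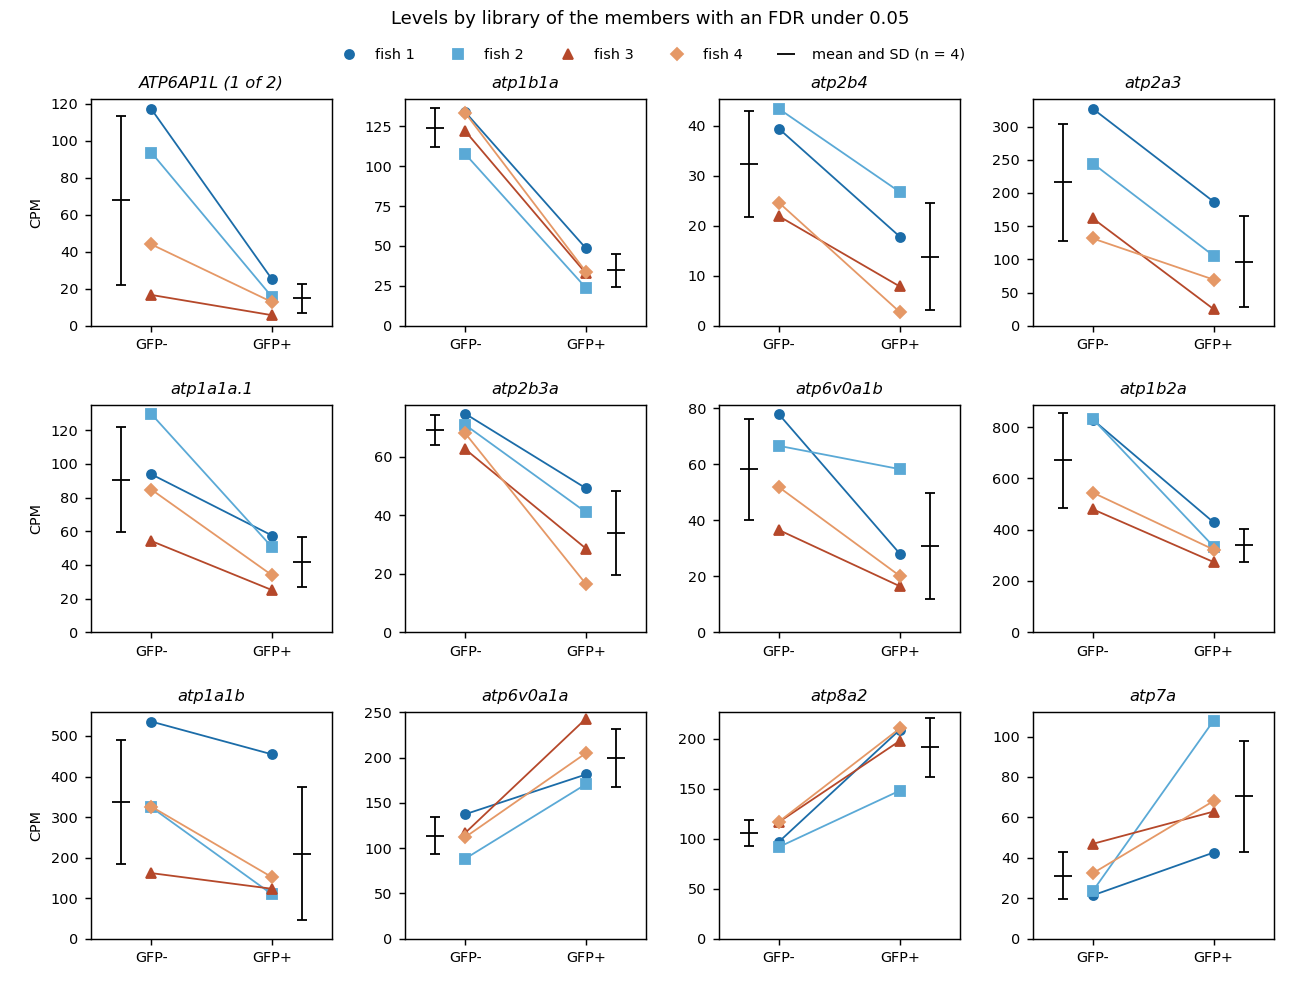
Level in CPM (linear axis from 0) in the GFP- and GFP+ library of each fish, joined by a line, for the 12 pump genes with an FDR under 0.05, with the mean and SD of each population beside them. All lines fall toward GFP+ for 9 genes and rise for *atp6v0a1a*, *atp8a2* and *atp7a*, and the lines of *atp1b1a* run from between 108 and 134 CPM down to between 23.7 and 48.5 CPM.

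The V-ATPase was covered by 8 V0, 11 V1 and 5 accessory genes. At an FDR under 0.01, 0 of these 24 were higher and 1 was lower (background 3.13% and 5.68%), and their median log2 fold change was -0.19. No V0 or V1 gene passed the FDR of 0.01. *atp6v0cb*, which encodes a copy of the rotor's proteolipid and took the most counts in V0, had 263, 271, 359 and 435 CPM in GFP+ and 235, 230, 372 and 356 CPM in GFP- libraries, with overlapping populations and a difference within fish of at most 0.29 on the log2 scale (log2 fold change 0.16 ± 0.25, FDR = 0.749). *atp6v1e1b*, a stalk subunit with the most counts in V1, had 71.0, 107, 95.7 and 174 CPM in GFP+ and 130, 116, 129 and 225 CPM in GFP- libraries. It was lower in the GFP+ library of each fish, the populations overlapped, and it was not called (log2 fold change -0.45 ± 0.26, FDR = 0.302). Of the 11 V1 genes, 9 had a fitted change below 0 (background 51.0%). Without scaling factors 5 were below 0 and 6 above (54.5%, background 62.5%). With TMM scaling 3, *atp6v1e1b*, *atp6v1f* and *atp6v1ab*, were lower in all 4 fish (background 18.9%). However, 0 of the 11 passed an FDR of 0.05 (background 5.60% higher and 9.57% lower). Counts of *atp6v1ab* were low, and its direction in fish 3 rests on 3 GFP+ against 5 GFP- counts. *atp6v1f* overlaps *LAMTOR4* by 3106 bases in the table's coordinates, and its reads may be shared.

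Subunit a of V0 anchors the stator and carries part of the proton path, and its copies are targeted to different membranes. In mammals a1 is the form of neurons and synaptic vesicles. The zebrafish copies of a1 lay in opposite directions. *atp6v0a1a* (chromosome 3, 16542207 to 16593106) had 181, 171, 243 and 205 CPM in GFP+ and 137, 88.3, 117 and 112 CPM in GFP- libraries. All GFP+ values were above all GFP- values (log2 fold change 0.82 ± 0.26, FDR = 0.0345), and the FDR was above 0.05 when any 1 fish was left out (0.063 to 0.13) and without the block (0.134). *atp6v0a1b* (chromosome 24, 7709398 to 7745576) had 28.1, 58.3, 16.4 and 20.1 CPM in GFP+ and 77.8, 66.6, 36.5 and 51.8 CPM in GFP- libraries. It was lower in the GFP+ library of each fish, least in fish 2, with overlap between the populations (log2 fold change -1.03 ± 0.34, FDR = 0.0450). The a2 genes, *atp6v0a2a* and *atp6v0a2b*, were not called (FDR = 0.389 and 0.843).

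Accessory subunits assemble with V0 and help target it. *atp6ap1a*, with the most counts of the 5, had 168, 136, 144 and 198 CPM in GFP+ and 172, 143, 148 and 161 CPM in GFP- libraries, and the populations overlapped with a difference near 0 (log2 fold change 0.04 ± 0.25, FDR = 0.955). *atp6ap2*, the (pro)renin receptor, was not called either (133 ± 43.5 against 146 ± 14.4 CPM, SD, n = 4 each, FDR = 0.751). *ATP6AP1L (1 of 2)* (chromosome 23, 19847124 to 19872364), named *atp6ap1lb* in the reference, had 25.1, 15.5, 5.72 and 12.8 CPM in GFP+ and 117, 93.7, 16.7 and 44.0 CPM in GFP- libraries. Fish 1 and 2 were the highest in the GFP- population, and the GFP+ library of fish 1 was above the GFP- library of fish 3. The mean was 4.59-fold lower in GFP+ libraries (14.8 ± 8.02 against 67.9 ± 45.8 CPM, log2 fold change -2.09 ± 0.36, FDR = 2.63e-04). Its FDR was 0.0141 without fish 1 and 0.0386 without the block.

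*ATP6AP1L (2 of 2)* (chromosome 11, 43612220 to 43618494), named *atp6ap1la* in the reference, lay in the opposite direction. It had 39.3, 24.2, 10.7 and 11.9 CPM in GFP+ and 9.45, 10.5, 5.21 and 11.7 CPM in GFP- libraries. The GFP+ library was the higher in each fish, by 1.95 on the log2 scale in fish 1 and by 0.03 in fish 4, and the gene was not called (log2 fold change 1.11 ± 0.53, FDR = 0.181).

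The copper pump gene *atp7a* delivers copper to enzymes of the secretory pathway and exports it from the cell, and its human relative is mutated in Menkes disease. It was the only member of its class. *atp7a* (chromosome 14, 23400340 to 23445024) had 42.6, 108, 62.9 and 68.1 CPM in GFP+ and 21.4, 23.6, 46.9 and 32.4 CPM in GFP- libraries. The GFP+ library was the higher in each fish, most in fish 2, and the populations overlapped only in that the GFP- library of fish 3 was above the GFP+ library of fish 1. The mean was 2.26-fold higher in GFP+ libraries (log2 fold change 1.18 ± 0.34, FDR = 0.0211). The FDR was 0.0788, 0.227, 0.00971 and 0.0746 without fish 1, 2, 3 and 4, with log2 fold changes from 0.83 (without fish 2) to 1.45 (without fish 3), and it was 0.0889 without the block.

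The P4 flippases had a median log2 fold change of 0.22. Of 11 genes, 6 were above 0 (background 49.0%), and 7 (63.6%) without scaling factors (background 62.5%), counts near the background. Among classes of more than 1 gene the median was above 0 for this class alone with TMM scaling. Without scaling factors it was also above 0 for V0 (6 of 8 genes above 0), V1 (6 of 11), the accessory genes (4 of 5) and the P5 pumps (2 of 3). The medians of those classes without scaling factors, 0.04 to 0.18, were below that of all genes, 0.32, and the P4 median was 0.58. At an FDR under 0.01, 0 were called (background 3.13% higher and 5.68% lower). At 0.05, *atp8a2* was higher in GFP+ libraries (background 5.60%). In the mouse its relative is the phosphatidylserine flippase of photoreceptor discs. *atp8a2* (chromosome 24, 21979227 to 22079337) had 209, 148, 198 and 210 CPM in GFP+ and 97.0, 91.8, 117 and 117 CPM in GFP- libraries. All GFP+ values were above all GFP- values, and the ratio was alike in the 4 fish, from 0.68 to 1.10 on the log2 scale. The mean was 1.81-fold higher (191 ± 29.4 against 106 ± 13.2 CPM, SD, n = 4 each, log2 fold change 0.85 ± 0.26, FDR = 0.0254). The FDR was 0.148, 0.0606, 0.0421 and 0.0781 without fish 1, 2, 3 and 4, and 0.108 without the block.

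*atp11a*, a flippase of the plasma membrane in mammalian cells, took the most counts of the class. It had 674, 686, 805 and 720 CPM in GFP+ and 505, 495, 816 and 718 CPM in GFP- libraries. The GFP+ library was higher in fish 1 and 2, and in fish 3 and 4 both were about the same (log2 fold change 0.22 ± 0.25, FDR = 0.655). It overlaps *si:dkey-263l8.2* by 774 bases. The share of P4 counts was 17.8% ± 2.44 (SD, n = 4) for *atp8a2* in GFP+ and 12.2% ± 0.92 (SD, n = 4) in GFP- libraries, higher in all 4 fish, while that of *atp11a* was 67.4% ± 4.42 and 71.7% ± 4.53, lower in all 4. *atp8a1*, a relative of *atp8a2*, was higher in each fish but was not called (48.8 ± 17.6 against 36.4 ± 4.01 CPM, FDR = 0.529). *ATP9A* had the highest fitted change of all 60 genes, at low counts and with fish 2 near 0 (12.9 ± 10.7 against 4.75 ± 3.67 CPM, log2 fold change 1.41 ± 0.71, FDR = 0.214). The remaining 7 genes had log2 fold changes from -1.89, for *atp8b2* (FDR = 0.0914), to 0.48, for *atp11b*. *atp11b* overlaps *mccc1* by 29025 bases.

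P5 pumps act in the endoplasmic reticulum and lysosome, where mammalian ATP13A2 exports polyamines. Of 3 genes, 0 were called at an FDR under 0.05 (background 5.60% higher and 9.57% lower). *ATP13A3* had 45.2, 36.7, 27.2 and 37.9 CPM in GFP+ and 57.0, 48.0, 15.6 and 55.7 CPM in GFP- libraries, with fish 3 low in the GFP- population and the other GFP- libraries above all GFP+ libraries (log2 fold change -0.17 ± 0.35, FDR = 0.816). *atp13a* and *atp13a2* had log2 fold changes of -0.13 and -0.40.

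Levels were also summed over each class, as a description. The alpha chains summed to 1849 ± 828 CPM in GFP+ and 1954 ± 1036 CPM in GFP- libraries (SD, n = 4 each), with a mean log2 ratio within fish of -0.05 ± 0.17. The sums of SERCA (mean log2 ratio -1.32 ± 0.74), plasma membrane calcium pumps (-0.67 ± 0.32) and V1 (-0.28 ± 0.24) were lower in the GFP+ library of all 4 fish. The sum of P4 flippases was higher in all 4 (0.31 ± 0.25), and V0 was near 0 (0.02 ± 0.11). Over all 60 genes the sum was 7411 ± 681 CPM in GFP+ and 8471 ± 1320 CPM in GFP- libraries, lower in GFP+ in fish 1, 2 and 3. Such sums mostly reflect the genes with most counts, and for the beta chains the mean log2 ratio was -0.38 ± 0.34, with fish 4 above 0. The ratio of V1 in fish 4 was only -0.02. All these sums carry TMM scaling, in which a higher factor lowers the CPM. The factor was higher in the GFP+ than the GFP- library in fish 1 (1.55 against 1.28), fish 3 (0.817 against 0.517) and fish 4 (0.997 against 0.695). In fish 3 and 4 the V1 sums (736 against 914 and 750 against 762 CPM, GFP+ against GFP-) differed by less than these factors. So did the sums over all 60 genes in fish 1 and 3, and these directions rest on the scaling. The SERCA and plasma membrane calcium pump sums differed by more than the factors in fish 1, 3 and 4, the latter narrowly in fish 4. Directions of the other sums without scaling factors were not tested.

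**Figure D3:**
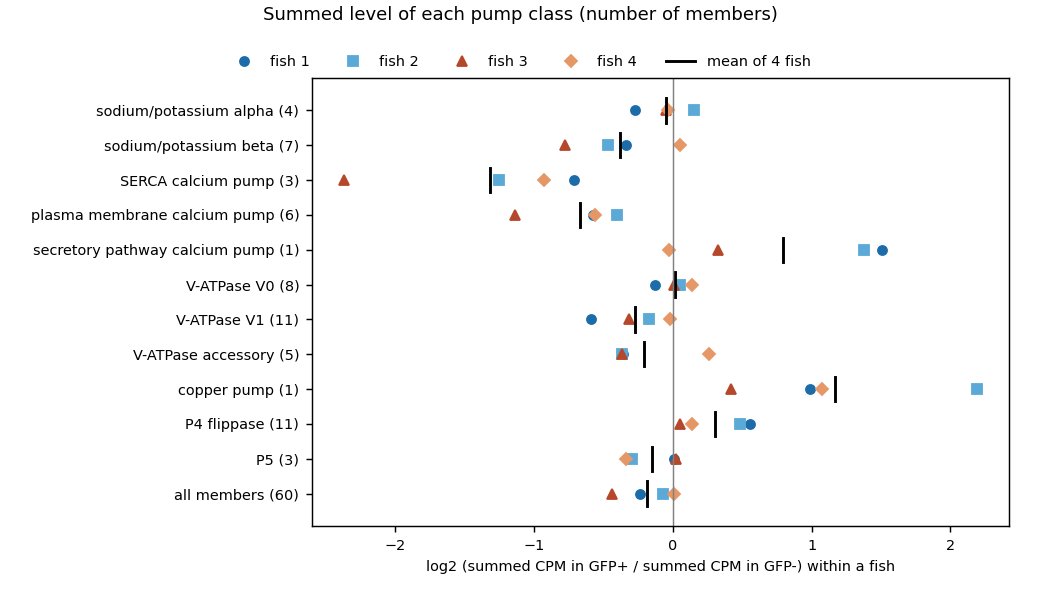
Log2 ratio of the summed CPM of each pump class, GFP+ over GFP-, within each fish (points) and as the mean of 4 fish (bars), with the number of genes in parentheses. With TMM scaling, SERCA, plasma membrane calcium pumps and V1 lie below 0 in all 4 fish (V1 near 0 in fish 4), the P4 flippases above 0, and the alpha chains close to 0.

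Zebrafish often hold a pair of copies of 1 mammalian gene, and 15 such pairs were compared by the difference of their log2 ratios within a fish. An exact two-sided sign-flip permutation test over 4 fish cannot pass 0.05, since its smallest p, rounded, is 0.13. Its outcome (6 pairs at that value, adjusted p = 0.3125 over the 15 pairs) therefore says nothing on whether copies differed, and the differences are given as a description. For *atp6v0a1a* against *atp6v0a1b* the difference was 1.84, 1.13, 2.16 and 2.19 in fish 1 to 4, with a mean of 1.83 ± 0.49 (SD). Of the counts of both copies, *atp6v0a1a* took 86.5% ± 8.47 in GFP+ and 66.4% ± 8.06 in GFP- libraries (SD, n = 4 each). For *ATP6AP1L (1 of 2)* against *(2 of 2)* the difference was -4.14, -3.66, -2.33 and -1.74, with a mean of -2.97 ± 1.12. The first copy took 34.8 to 51.9% of their counts in GFP+ and 76.2 to 92.5% in GFP- libraries, without overlap.

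The other pairs with 1 direction in all 4 fish were *atp1b2a* against *atp1b2b* (mean difference -0.92 ± 0.66), *atp2b3a* against *atp2b3b* (-0.68 ± 0.82), *atp6v0a2a* against *atp6v0a2b* (0.92 ± 0.61) and *atp6v1aa* against *atp6v1ab* (1.24 ± 0.72). For *atp1b2a* the difference in fish 3 was only -0.04. For *atp2b3a* it was only -0.05 in fish 2 and largest in fish 4 (-1.84). The direction for *atp6v0a2a* in fish 3 rests on 4 GFP+ and 3 GFP- counts, against 8 and 10 for *atp6v0a2b*. In the remaining 9 pairs the direction varied between fish. Among these were *atp1b1a* against *atp1b1b*, where the difference was positive in fish 2, and *atp1a3a* against *atp1a3b*, with a mean difference of -0.13 ± 0.45.

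**Figure D4:**
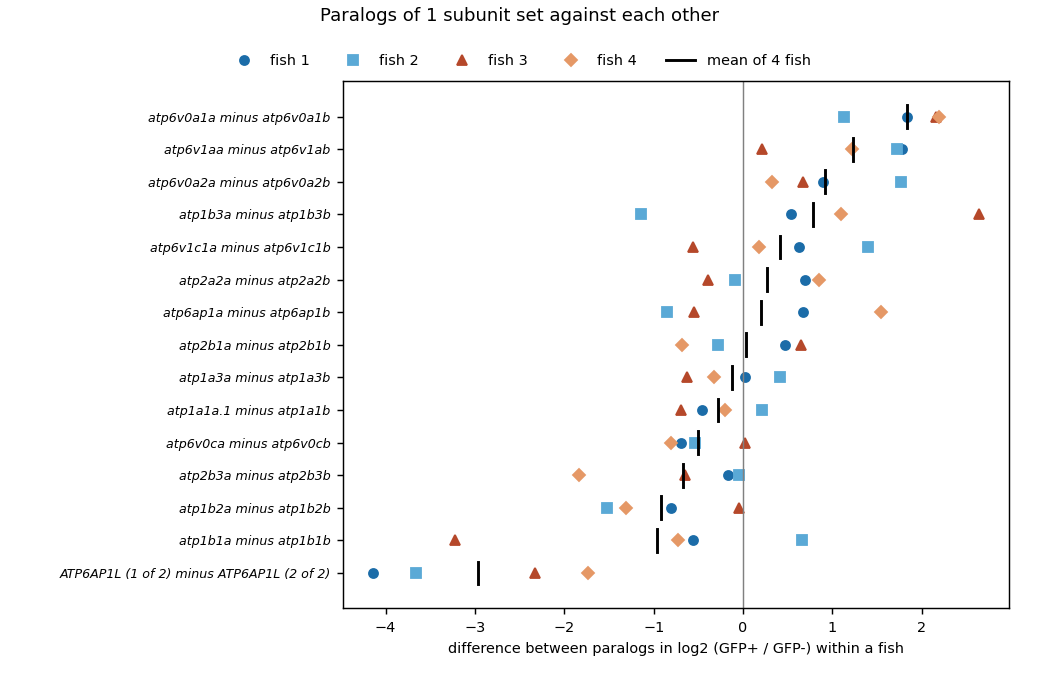
Difference between copies of 1 subunit in their log2 ratio of GFP+ over GFP- within each fish (points), with the mean of 4 fish (bars), for 15 pairs in the order of the mean. All 4 points lie on 1 side of 0 for 6 pairs, with means from -2.97 for *ATP6AP1L* to 1.83 for *atp6v0a1a* against *atp6v0a1b*.

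Genes that work with the pumps were read from the same fit. Of 20 tested, 1 was higher and 1 lower in GFP+ libraries at an FDR under 0.01 (background 3.13% and 5.68%), counts near the background. Both were on the list of V-ATPase partners. *oxr1b*, whose mammalian relatives protect neurons from oxidative damage and bind the V-ATPase, had 300.1, 464, 354 and 417 CPM in GFP+ and 135, 178, 236 and 225 CPM in GFP- libraries. All GFP+ values were above all GFP- values (log2 fold change 1.00 ± 0.26, FDR = 0.00871). The other *oxr1* entries, *oxr1a* and *OXR1 (3 of 3)*, had log2 fold changes of -0.68 and -0.10 and were not called (FDR = 0.388 and 0.976). *rnaseka*, whose human relative associates with the V-ATPase, was at 0 counts in every GFP+ library, whereas the GFP- libraries held 29, 46, 4 and 15 counts (fish 1 to 4). Against the floor of 3 counts per library the mean GFP+ level was at least 7.04-fold lower (FDR = 0.00104). The TMEM30 subunits of the flippases, *tmem30aa* and *tmem30ab*, had log2 fold changes of 0.72 ± 0.42 and 0.43 ± 0.28 and were not called (FDR = 0.293 and 0.359). The sodium pump regulator *fxyd6l*, the sodium/calcium exchangers (*slc8* genes), the copper carriers *atox1*, *slc31a1* and *slc31a2* and the scramblase *ano6* were not called.

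The contrast was also set side by side in the fish without (1 and 2) and with (3 and 4) the suffix in their labels. A test of the difference, the interaction in the same edgeR model, called 0 of the 60 genes at an FDR under 0.05 (background 0.167%). The lowest FDR was 0.859, and 0 genes had an unadjusted p under 0.05, for which the share of all genes was not counted. With 2 fish on each side and so low a background, 0 calls were likely in any case. They do not show that the label groups were alike. The log2 fold change was -1.77 and -1.98 for *atp1b1a*, -2.36 and -1.71 for *ATP6AP1L (1 of 2)*, -0.97 and -1.79 for *atp2a3* and 1.63 and 0.71 for *atp7a* in fish 1 and 2 and in fish 3 and 4. The FDR within fish 1 and 2 and within fish 3 and 4 was 6.82e-04 and 0.0110 for *atp1b1a*, 3.09e-05 and 0.237 for *ATP6AP1L (1 of 2)*, 0.0256 and 0.0350 for *atp2a3*, and 0.00563 and 0.496 for *atp7a*. Fish 3 and 4 also differed from fish 1 and 2 in the share of mitochondrial counts (28.9 to 66.1% against 12.4 to 26.9%), and what the suffix stands for cannot be told apart from the fish.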

How the data were processed

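RNA-seq was available for 4 GFP+ and 4 GFP- libraries. The authors trimmed reads with Sickle, joined overlapping mates (FLASH), mapped them to Zv9 (BWA) and sorted the alignments (SAMtools). The deposited counts were made with HTSeq-count and are whole numbers per gene without normalization. BWA does not splice reads, so reads over exon junctions may be lost, and the strand setting of the counting was not given in the sources used here. HTSeq's counters of unassigned reads, 34.4 to 55.3% of the totals, stayed out of library sizes. The authors also deposited their comparison with columns of log2 values (fold change and mean CPM), a score from a likelihood ratio test, p-values raw and adjusted, and 1 normalized signal column per library. Its fold changes, scores and p-values were not used, and 0 sample columns were left unmapped. Whole reads were recovered from the deposited signal for 100% of values (tolerance 0.01) and equalled the deposited counts for 100% of values. The count test on them, over the 13325 genes of that table, called 403 genes higher and 709 lower.

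Symbols and coordinates (Zv9) came from the authors' table. A reference of gene names held a symbol for 55 of the 60 genes, and 13 further IDs matching the pattern by those names lay outside the table, with at most 13 counts in a library. The model was fitted with edgeR 4.0.16 in R 4.3.3, with fish as a blocking term, after TMM scaling and filterByExpr. A trended dispersion was used, the quasi-likelihood F test was applied, and p-values were adjusted over 12564 genes by the Benjamini-Hochberg method. Thresholds were an FDR of 0.01 and 0.05. Standard errors (±, SE) are the fitted log2 fold change divided by the square root of F, and means are given ± SD. Fold changes of means are ratios of mean CPM. Log2 ratios within a fish used a prior count of 2. Alternatives were DESeq2 1.42.0, the likelihood ratio test, other scaling, no filter, mitochondrial genes removed, no block, each fish left out, and each label group alone. The test was also run on simulated counts in which the level of a gene did not differ between fish. Changed genes there were drawn from those above the median level. That run therefore does not check the use of the block or genes with low counts. Python 3.11.15 with pandas 2.3.3 and matplotlib 3.10.9 was used for tables and plots.

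The libraries were paired by fish, since the study's methods state that both populations came from the retinas of 1 fish. Deviations of libraries of the same fish from their population means correlated at 0.323, 0.292, 0.333 and 0.214 for fish 1 to 4. For different fish the means were -0.169 to -0.062. Deviations from a population mean cancel out within it, so positive values for the same fish push those for different fish to negative. Genes given in every library are those with an FDR under 0.01, their near copies, and the gene with most counts in each class. Those with an FDR between 0.01 and 0.05, and the few others named, were chosen after their values were seen. The members, partner genes and marker lists were chosen with earlier results of these data known.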

Additional observations from a re-analysis of the deposited data

Results flagged for a closer look

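In 48 groups of 4 libraries, from 24 pump genes in both populations, 2 libraries stood further from the rest of their group than Dixon's 95% limit for the gap over the range, where chance gives about 1 in 20. For *ATP13A3*, the GFP- library of fish 3 had 15.6 CPM, with a gap of 0.865 of the range. For *atp6v1e1b*, the GFP- library of fish 4 had 225 CPM, with a gap of 0.831 of the range. Neither gene was called in the comparison.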

How the results depend on the processing

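Against 0 pump genes higher and 3 lower at an FDR under 0.01, the fit with no replicate block, in which the fish were not paired, found 0 and 1 (of 55 tested), the likelihood ratio test 1 and 6, DESeq2 1 and 5, and the fit without scaling factors 3 and 2. Fish 1 and 2 alone gave 1 and 3 (of 59 tested), and fish 3 and 4 alone 0 and 0 (of 54 tested). At an FDR under 0.05, fish 3 and 4 alone gave 2 lower, for which the share of all genes was not counted. Leaving out 1 fish gave 0 to 1 higher and 1 to 2 lower. Of all genes tested, 0.44% were higher and 1.38% lower without the block, and 4.66% and 8.79% by the likelihood ratio test. DESeq2 called 4.21% and 7.59%, and the fit without scaling factors 4.52% and 2.96%. For fish 1 and 2 alone these shares were 3.58% and 4.81%, and for fish 3 and 4 alone 0.91% and 1.83%. With 1 fish left out they were 1.61 to 2.82% and 2.90 to 4.55%. *atp1b1a* kept an FDR under 0.01 in 13 of 14 alternatives, *ATP6AP1L (1 of 2)* in 11 and *atp2a3* in 6. Of 823 values of single genes, 777 kept their direction. The 46 that changed sign belonged to 20 genes, none with an FDR under 0.05 in the main analysis or in that alternative, and the cause was not tested. Without scaling factors these log2 fold changes turned positive: *atp10a* 0.31, *atp13a* 0.17, *ATP13A3* 0.18, *atp6v0a2b* 0.10, *atp6v0b* 0.19, *atp6v0ca* 0.0133, *atp6v1aa* 0.33, *atp6v1b2* 0.18, *atp6v1c1b* 0.0359, *atp6v1h* 0.31, *atp6ap1b* 0.14, *atp6ap2* 0.18, *atp1b2b* 0.32 and *atp1b3a* 0.22. Without the block they did for *atp13a* (0.28) and *atp1b3a* (0.0299), and with mitochondrial genes removed for *atp6v1aa* (0.0013). In fish 1 and 2 alone the sign changed for *atp13a* (0.62), *atp6v0a2b* (0.0275), *atp6v1aa* (0.28), *atp6v1b2* (0.13), *atp6ap1a* (-0.0177), *atp6ap1b* (0.0612) and *atp1b2b* (0.0688). In fish 3 and 4 alone it changed for *atp11a* (-0.0501), *ATP13A3* (0.0190), *atp6v0a2a* (-0.0070), *atp6v0b* (0.10), *atp6v1c1a* (-0.20), *atp1a3a* (-0.20) and *atp1b3a* (0.46). With 1 fish left out, values ranged from -0.996 to 0.904 for *atp10a*, -0.68 to 0.51 for *atp13a*, -0.99 to 0.0759 for *atp13a2*, -0.26 to 0.0759 for *atp6v0b*, -0.21 to 0.24 for *atp6v1aa*, -0.0221 to 0.23 for *atp6v1c1a*, -0.21 to 0.10 for *atp6v1h*, -0.0323 to 0.0867 for *atp6ap1a*, -0.60 to 0.22 for *atp6ap1b*, -0.42 to 0.0463 for *atp6ap2*, -0.20 to 0.18 for *atp1a3a*, -0.22 to 0.23 for *atp1b2b* and -0.53 to 0.48 for *atp1b3a*. The recovery of whole reads was an alternative chosen after seeing the data, and gave 0 higher and 3 lower. These reads equalled the deposited counts for 100% of values, so this fit was bound to lie close to the main one. It is included in the 14 alternatives and the 823 values. Depth limits the 9 pump genes with a mean under 10 CPM, whose standard errors reach 1.05 on the log2 scale.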
